A study of Mus musculus with 15 samples.

Results

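The genes described here are Pcbp1, its paralogs Pcbp2, Pcbp3 and Pcbp4, the related Hnrnpk, the elongation factor gene Eef1a1, the translational targets Fam3c and Dab2, and the Fam3c paralog Fam3a. They were chosen by name, 9 of the 13893 genes in the table of knockout lines (hereafter the knockout table) and 9 of the 15023 genes in the table of the PCBP1 knockdown (hereafter the knockdown table). Transcripts were measured by RNA-Seq of rRNA-depleted total RNA from NMuMG, a line of normal mouse mammary gland epithelial cells, and its derivatives. The study asked how loss of PCBP1, and then of FAM3C or LIFR, changes gene expression, and the comparisons below follow these genes through each of those steps.

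The knockdown table compared 2 NMuMG samples labelled as wild type and without treatment with 2 shPCBP1 samples, in which PCBP1 was knocked down by shRNA. The paper describes this experiment as a comparison with shSCR cells, which carry a scrambled shRNA, whereas the labels of the controls name no shRNA, and the name NMuMG follows the labels. All 11 libraries of the knockout table carried the PCBP1 shRNA, so that table holds no cells with unreduced PCBP1. Its groups were 4 shPCBP1 lines wild type for FAM3C and LIFR (the unaltered line and CT clones 1 to 3, the latter exposed to Cas9 with no guide against a gene), 3 FAM3C KO clones labelled FAM3C -/-, 3 LIFR KO clones labelled LIFR -/-, and 1 line labelled FAM3C -/-, LIFR -/- (hereafter the double KO). Each of those lines gave 1 library, the study speaks of pooled RNA isolates, and the spread within a group is the spread between lines. No source says whether the replicates of the knockdown table came from separate cultures, and their p values may measure technical spread only.

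PCBP1, also called hnRNP E1, is a KH-domain protein that binds C-rich stretches of RNA and takes part in mRNA stability, splicing and translation. On the mRNAs of FAM3C and DAB2 it is known to bind an element in the 3' UTR and, with eEF1A1, to hold back translation elongation until TGF-beta signaling through AKT releases it. FAM3C (ILEI) is a secreted cytokine-like protein tied to epithelial-mesenchymal transition, and DAB2 is an endocytic adaptor that links cargo receptors to clathrin. RNA-Seq measures the amount of these mRNAs and not how well they are translated.

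The guides used against Fam3c are shown first because they set what the Fam3c values in the knockout clones can tell. They are written 5' to 3' with the bases as the study lists them. Lower case is used here, with the PAM (the motif Cas9 needs beside its target) in capitals where the listed sequence includes it.
Exon 3 guide 1: gacctgagacgcctgtctagGGG
Exon 3 guide 2: tgcaaagttggtagtggccg
Exon 5 guide 1: CCTccgaggtacaagtgtgggat
Exon 5 guide 2: cgtgggacccaagatctgccTGG
Fam3c (ENSMUSG00000029672) lies on the minus strand of chromosome 6 of GRCm38 from 22306520 to 22356243. Exon 3 guide 2 matched bases 231 to 250 of its 2826-base transcript, at chr6:22339354-22339373 in coding sequence of exon 3, and was followed there by TGG. Exon 5 guide 1 was listed with its PAM complement at the left end and matched at chr6:22328648-22328670, and exon 5 guide 2 matched at chr6:22328565-22328587, both in the coding part of the 124-base exon 5. With cuts 3 bases from each PAM, the exon 5 pair would remove 94 bases, a length that leaves a remainder of 1 after division by 3. Those bases are 3.33% of the transcript, so that most of the Fam3c mRNA would still be counted if it were made. The paper describes its guide pairs as chosen to cut out a somewhat larger fragment, and the excision in each clone was not measured here. Exon 3 guide 1 had no match in the spliced transcript, and its genomic position was not analysed here. The labels do not say which guides made which clone.

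The totals behind the CPM values (counts scaled to the reads of the library) were put at 16031859 to 46901675 reads for the knockout table and 53033517 to 56497175 reads for the knockdown table, from the value of a single read in each library. The listed genes held 70.4 to 78.7% of all CPM in the knockout table and 41.2 to 41.6% in the knockdown table. The tables were normalized separately, and levels were not tested between them. Of 7 epithelial markers 4 were listed in each table (Cdh1, Krt8, Krt18 and Krt19). Their summed level was 2916 to 2970 CPM in NMuMG and 2766 to 2823 CPM in shPCBP1 samples of the knockdown table, where Cdh1 fell from 234 to 149 CPM (-0.65, adjusted p = 4.55e-10, limma). Of the 4 genes 3 were called lower there and 1 higher. The higher gene was Krt18, at 924 to 936 CPM in NMuMG and 965 to 997 CPM in shPCBP1 samples. Among the knockout lines the epithelial sum was 2466 to 3166 CPM in shPCBP1, 2001 to 3023 CPM in FAM3C KO and 1212 to 2092 CPM in LIFR KO, the last without overlap with shPCBP1, and 1817 CPM in the double KO. Cdh1 itself overlapped, at 268 to 344 CPM in LIFR KO and 292 to 346 CPM in shPCBP1. The 7 mesenchymal markers summed to 1766 to 1997 CPM in shPCBP1 and, without overlap, 2012 to 2171 CPM in FAM3C KO. They summed to 1241 to 1877 CPM in LIFR KO and 1769 CPM in the double KO. The 7 genes did not move together in FAM3C KO, and none was called. Cdh2 (217 to 271 CPM against 109 to 201 CPM in shPCBP1) and Zeb1 were higher in each clone. Twist2 (5.59 to 18.7 CPM against 20.8 to 29.5 CPM) and Twist1, at the value for no reads, were lower in each. Vim, Fn1 and Snai2 overlapped. Over all genes 10.1% lay higher and 12.5% lower without overlap. Of the leukocyte markers, Ptprc did not exceed 0.0355 CPM and Lyz2 0.443 CPM in the knockdown table, and Cd68 rose from 1.09 to 1.66 CPM (adjusted p = 0.00281, limma) and was at 4.29 to 10.8 CPM among the knockout lines. Among the knockout libraries 3 stood apart. LIFR KO clones 2 and 3 and the double KO had lower values for genes of high GC content, with Spearman correlations across 12603 genes of -0.757, -0.754 and -0.710 between GC content and the difference from the shPCBP1 mean, against -0.287 to 0.237 in the other 8. Genes share their library here, and these values are descriptions. The same 3 libraries had 7.16 to 8.58% of their listed CPM in mitochondrial genes, against 3.14 to 4.06% in the others. The part of the marker levels and mitochondrial shares in the results below was not tested.

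The targeted gene was measured first. Pcbp1 (ENSMUSG00000051695, chromosome 6 of GRCm38 from 86524492 to 86526321), which has a single exon, stood at 287 and 312 CPM in NMuMG cells and at 14.1 and 14.2 CPM in shPCBP1 cells. Both shPCBP1 samples were far below both controls, at 4.73% of the control mean. On the log2(CPM + 0.1) scale, which understates changes of low genes, the fall was -4.39 (SE 0.0376, adjusted p = 5.23e-14, limma), and 190 of the 11384 genes tested had a larger absolute change. A change was called at an adjusted p under 0.07, the threshold of the study. In bulk RNA a lower share of cells that express a gene and less RNA per cell cannot be told apart.

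Of the 9 genes, 8 passed that threshold on knockdown, 5 higher and 3 lower. Of all genes tested 80.1% passed it (42.1% higher and 38.0% lower), with a median absolute log2 change of 0.363, so that the share among these genes is close to that of any genes in this comparison and the sizes carry more than the calls. The median log2 change over all genes was 0.025. The samples of the groups did not overlap for these 8 genes, nor for 89.0% of all genes.

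The question of paralog compensation was read from Pcbp2, Pcbp3 and Pcbp4, KH-domain proteins that share most of the architecture of PCBP1. Pcbp2 (chromosome 15 of GRCm38 from 102470539 to 102500061), the closest paralog, was at 34.5 and 31.2 CPM in NMuMG cells and at 41.5 and 42.8 CPM in shPCBP1 cells. Both knockdown samples were higher, by 0.36 on the log2 scale (SE 0.0467, adjusted p = 2.96e-05, limma) or 1.28-fold, and 5724 genes changed by more. Pcbp4 (chromosome 9 from 106453291 to 106464012), the most divergent paralog by coding sequence, was at 9.10 and 8.96 CPM in the controls and at 14.4 and 15.3 CPM on knockdown. It rose by 0.71 (SE 0.0608, adjusted p = 9.08e-07, limma), a fold of 1.64, and 2719 genes changed by more. Pcbp3 (chromosome 10 from 76761857 to 76961887) had 3.96 and 4.64 CPM in the controls and 4.64 and 4.34 CPM on knockdown, and these overlapped. Its difference of 0.064 had a 95% interval from -0.17 to 0.30 and did not pass the test (adjusted p = 0.588, limma). The calls of Pcbp2 and Pcbp4 were made in each of 7 other settings and with each sample left out.

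Set per kb of the union of all annotated exons of a gene, the rises were small beside the loss. That union is 1830 bases for Pcbp1, the length of its transcript. It is 5203 bases for Pcbp2 and 4268 for Pcbp4, whose longest coding transcripts have 3222 and 2035 bases. This divisor therefore lowers these paralogs relative to Pcbp1. Pcbp1 fell by 156 CPM per kb, while Pcbp2 gained 1.79 and Pcbp4 gained 1.36 CPM per kb, and the 3 paralogs together gained 3.22 CPM per kb or 2.06% of what Pcbp1 lost. Pcbp1 has 1 annotated exon and Pcbp2, Pcbp3 and Pcbp4 have 14, 19 and 13, and the aligner named in the methods does not split reads at introns, so levels per kb may be low for the paralogs relative to Pcbp1, and this was not tested. The 4 genes summed to 167 and 180 CPM per kb in NMuMG cells and to 20.6 and 21.05 CPM per kb in shPCBP1 cells. The share of Pcbp1 in that sum was 93.9 and 94.6% in the controls and 37.3 and 36.9% after knockdown, and that of Pcbp2 was 3.97 and 3.32% and then 38.6 and 39.1%. These are levels of mRNA, and protein was not measured here.

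**Figure D1:**
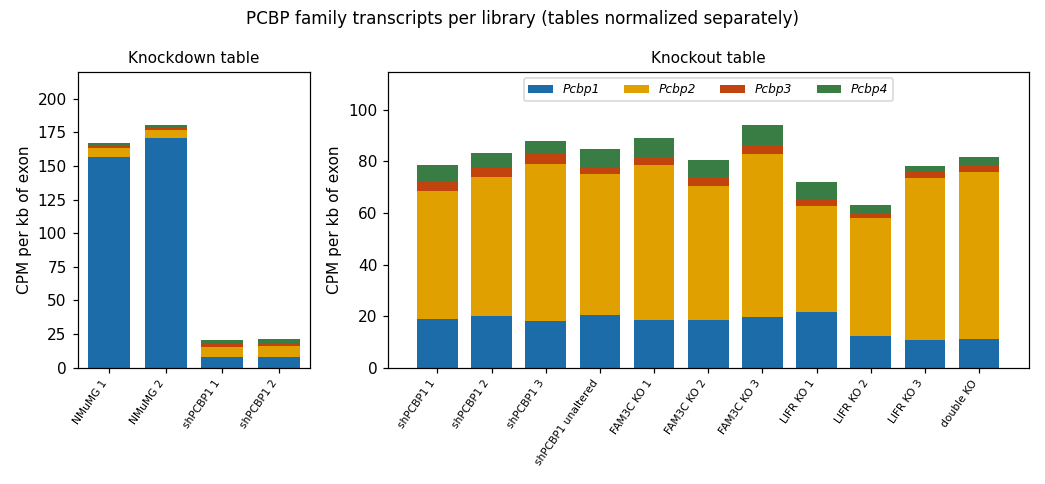
Stacked bars of CPM per kb of exon for Pcbp1, Pcbp2, Pcbp3 and Pcbp4 in each library of the knockdown table (left) and the knockout table (right), which were normalized separately and have their own axes. The bar of Pcbp1 makes up 93.9 and 94.6% of the sum in the NMuMG samples and 37.3 and 36.9% in the shPCBP1 samples, and Pcbp2 is the tallest segment in every library on the right.

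Reads of these paralogs can be told apart by sequence over most of their length. The coding sequences of Pcbp1 and Pcbp2 were 82.3% identical in GENCODE M21, those of Pcbp1 and Pcbp3 73.0% and those of Pcbp1 and Pcbp4 65.2%, and the longest run of bases shared by the Pcbp1 and Pcbp2 transcripts was 33. A separate limit applies to Pcbp2. Its annotated transcripts share 1576 bases with transcripts of Map3k12 on the opposite strand, and Map3k12 was listed at 15.4 to 19.9 CPM in the knockdown table and 60.4 to 74.8 CPM in the knockout table. The library kit marks strand, and whether counting used it is not given in the sources used here. Transcripts of 9 pseudogenes match Eef1a1 and of 2 match Hnrnpk at 95% identity or more over at least 150 bases, and neither table lists them, so the counts of these genes are uncertain to that extent.

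Hnrnpk (chromosome 13 from 58391142 to 58403343) encodes hnRNP K, the more distant KH-domain relative of the PCBPs. Its levels were 152 and 155 CPM in NMuMG cells and 168 and 163 CPM in shPCBP1 cells. Both knockdown samples were higher, by 0.11 (SE 0.0243, adjusted p = 0.00218, limma), a change smaller than that of 9543 genes. After quantile normalization the difference was 0.036 with an adjusted p of 0.164 (limma), so the call rests on the scaling.

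Eef1a1 (chromosome 9 from 78478449 to 78489151) encodes the elongation factor that delivers aminoacyl-tRNA to the ribosome and is the partner of PCBP1 in translational silencing. It had the highest level of the 9 genes in every library. Its values were 3437 and 3451 CPM in the controls and 3676 and 3564 CPM on knockdown. The difference of 0.072 (SE 0.0231, adjusted p = 0.0149, limma) passed the test and lost its call under median-ratio rescaling (adjusted p = 0.0901), without shPCBP1 replicate 1 (adjusted p = 0.357) and without shPCBP1 replicate 2 (adjusted p = 0.127), all by limma. After quantile normalization it was 0.35. The Eef1a1 call therefore depended on scaling and on single samples.

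Fam3c, whose mRNA PCBP1 holds back from translation, was lower on knockdown. It was at 25.0 and 26.6 CPM in NMuMG cells and at 20.9 and 19.6 CPM in shPCBP1 cells, with no overlap, a change of -0.35 (SE 0.0495, adjusted p = 6.26e-05, limma). Fam3a (chromosome X from 74384719 to 74393272), its paralog, was at 9.66 and 10.6 CPM and then at 6.88 and 7.15 CPM, a change of -0.52 (SE 0.0750, adjusted p = 6.85e-05, limma). Both measured FAM3 genes fell, in each of 7 other settings and with each sample left out. Of the 4 FAM3 genes 2 were listed in each table, and Fam3b and Fam3d were not. The 63.9% identity of the Fam3a and Fam3c coding sequences leaves their reads distinct.

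Dab2 (ENSMUSG00000022150, chromosome 15 from 6299788 to 6440712), the other translational target, moved the opposite way. It stood at 0.053 and 0.11 CPM in NMuMG cells, which correspond to 3 and 6 reads, and at 1.63 and 1.87 CPM in shPCBP1 cells, which correspond to 91 and 101 reads. Both knockdown samples were higher by 3.35 on the log2 scale (SE 0.206, adjusted p = 5.54e-08, limma), and 371 genes changed by more. Because the controls held so few reads, the ratio was also taken from the summed reads, 192 against 9, and was 21.3 with an exact 95% interval of 10.97 to 47.2 that covers counting error only. Per length Dab2 remained the lowest of the 9 genes, at 0.238 CPM per kb after knockdown. Mesenchymal markers rose in the same samples, in 6 of 6 tested genes of a list of 7, where 42.1% of all genes were called higher. Twist1, at 0.0001 CPM in NMuMG and 0.323 and 0.3327 CPM in shPCBP1 samples, was under the filter. The summed level over all 7 was 530 to 551 CPM in NMuMG cells and 1301 to 1335 CPM in shPCBP1 cells. The part of these markers in the Dab2 value was not tested. In the knockout table the 4 shPCBP1 lines held 38, 44, 0 and 1 reads of Dab2. Its level thus differed between lines that carry the PCBP1 shRNA.

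**Figure D2:**
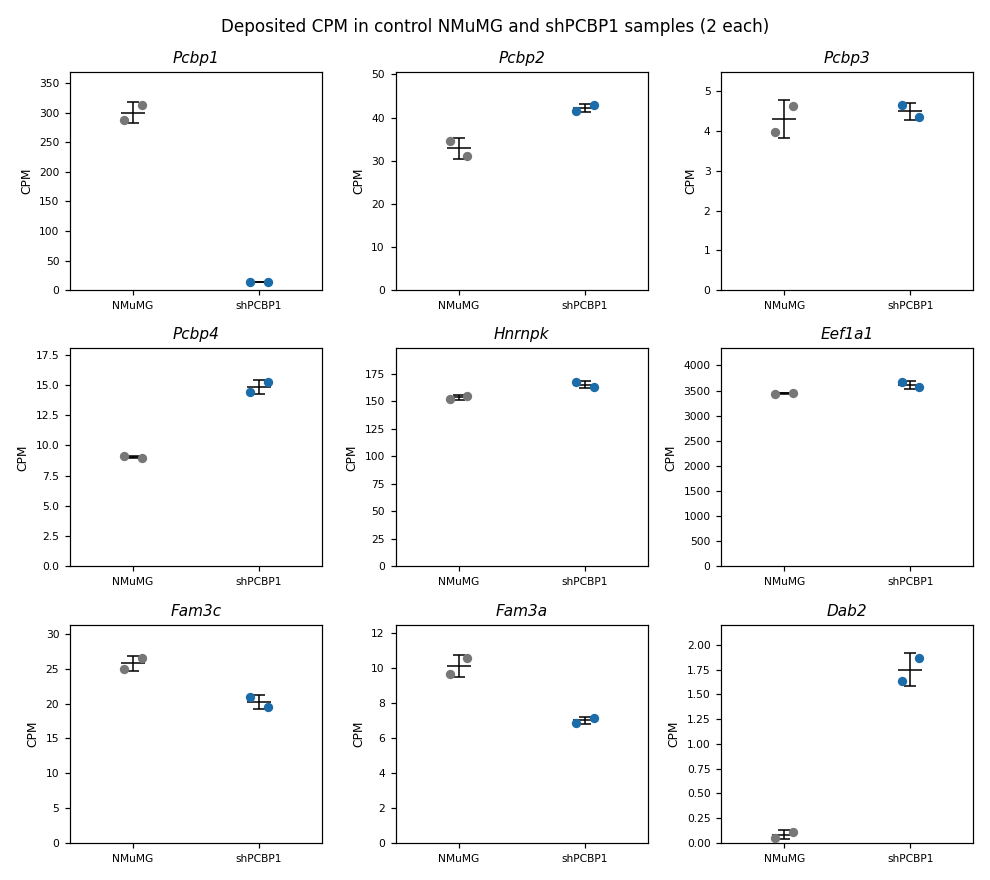
Deposited CPM of each gene in 2 NMuMG and 2 shPCBP1 samples (points), with the mean and SD of each group in black and a linear axis from 0. The shPCBP1 samples of Pcbp1 sit at 14.1 and 14.2 CPM, far below the controls, while Pcbp2, Pcbp4, Hnrnpk, Eef1a1 and Dab2 are higher in both, Fam3c and Fam3a lower in both, and Pcbp3 overlaps.

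Dab2 lies near Lifr on chromosome 15, and 4 other listed genes start within 1 Mb of its start. Fyb, an adaptor gene 223065 bases away, rose from 7.30 to 12.5 CPM (0.76, adjusted p = 1.74e-05, limma). Rictor, which encodes a subunit of mTOR complex 2, fell from 48.4 to 36.4 CPM (-0.41, adjusted p = 3.34e-07, limma). Lifr, at a distance of 790826 bases, was listed at the value for no reads in both NMuMG samples and at 2.94 and 2.40 CPM in the shPCBP1 samples. Osmr, a receptor gene of the same cytokine family, was under the filter on low values, with no reads in NMuMG cells and a mean of 0.0273 CPM in shPCBP1 cells. The genes around Dab2 therefore did not move in 1 direction.

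Genes that act with these proteins were read from lists, whose shares of called genes are to be set against the 80.1% of all genes (42.1% higher and 38.0% lower). Of 29 tested genes for other KH-domain RNA-binding proteins, 11 rose and 8 fell on knockdown, with a median log2 change of 0.017. The largest called changes were in Khdrbs3, a STAR-family splicing regulator, with 0.0726 CPM in NMuMG and 8.98 CPM in shPCBP1 cells (adjusted p = 9.95e-11, limma), in Nova1, a splicing regulator best known from neurons, which fell by 1.17 (adjusted p = 5.60e-07, limma), and in Akap1 and Pno1, which rose by 0.96 and 0.87. Of 9 translation elongation factor genes, Eef1a1 among them, 6 rose and 3 fell, with a median of 0.15. Eif5a, which encodes the factor that relieves stalled ribosomes, rose most (0.68, adjusted p = 3.21e-10, limma). Eef2k and Eef1e1 rose by 0.35 and 0.27, and Eef1g, a subunit of the complex that recharges eEF1A with GTP, changed by -0.30.

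Of 11 tested genes of the AKT, PAK1 and TGF-beta receptor signaling that acts on PCBP1, 6 rose and 5 fell, with a median of 0.33. The ligand genes Tgfb2 and Tgfb1 rose by 2.45 and 1.97 (adjusted p = 9.04e-09 and 6.72e-09, limma), while the receptor gene Tgfbr1 and the signal transducer Smad2 changed by -1.08 and -1.03. Among the kinases that phosphorylate PCBP1 or its regulators, Akt1 rose from 74.7 to 101 CPM and Pak1 fell from 20.54 to 13.9 CPM. Of 22 tested clathrin adaptors and partners of DAB2, Dab2 among them, 13 rose and 7 fell, with a median of 0.16. Lrp2, which encodes the cargo receptor megalin, had a mean of 0.0278 CPM in NMuMG and 1.09 CPM in shPCBP1 cells. Cltb, a clathrin light chain gene, rose by 1.28 and Myo6, which encodes the motor that DAB2 recruits, changed by -1.06 (adjusted p = 1.45e-10 and 6.53e-10, limma). The lists had 19 of 29, 9 of 9, 11 of 11 and 20 of 22 genes called, and the calls of each ran in both directions, as they did over all genes.

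In the knockout table the shPCBP1 lines differed little from each other for most of the 9 genes. Pcbp1 had 37.1 CPM in the unaltered line, and CT clones 1 to 3 had 34.4, 36.5 and 32.9 CPM. The coefficient of variation over the 4 lines was 5.51% for Pcbp1 and no higher than 10.9% for the others except Dab2, for which it was 128%. Per kb the order of means was Eef1a1 (1561), Pcbp2 (54.9), Hnrnpk (51.5), Pcbp1 (19.3), Fam3c (14.5), Pcbp4 (6.12), Fam3a (3.70), Pcbp3 (3.38) and Dab2 (0.119). The ranges over lines overlapped for Pcbp2 with Hnrnpk and for Fam3a with Pcbp3, and not for the other neighbours in that order. In NMuMG cells of the knockdown table the order per kb was Eef1a1 (1382), Pcbp1 (164), Hnrnpk (23.7), Fam3c (6.95), Pcbp2 (6.31), Fam3a (4.07), Pcbp4 (2.12), Pcbp3 (1.47) and Dab2 (0.0113), with no overlap between neighbours. These orders use the union of annotated exons, 5203 bases for Pcbp2 and 3713 for Fam3c. Their longest coding transcripts have 3222 and 2826 bases, so close neighbours can change places with the length used.

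Within shPCBP1 cells the ratio of Pcbp2 to Pcbp1 per kb was 2.66 to 3.40 in the 4 lines of the knockout table and 1.03 and 1.06 in the 2 samples of the knockdown table. The ratio of Pcbp2 to Hnrnpk per kb was 0.9497 to 1.13 in the former and 0.308 to 0.327 in the latter. These are ratios within libraries and do not depend on the scaling of the library, and the tables differ in their gene coordinates and in the share of reads that the listed genes hold. The values are given side by side and were not tested.

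**Figure D3:**
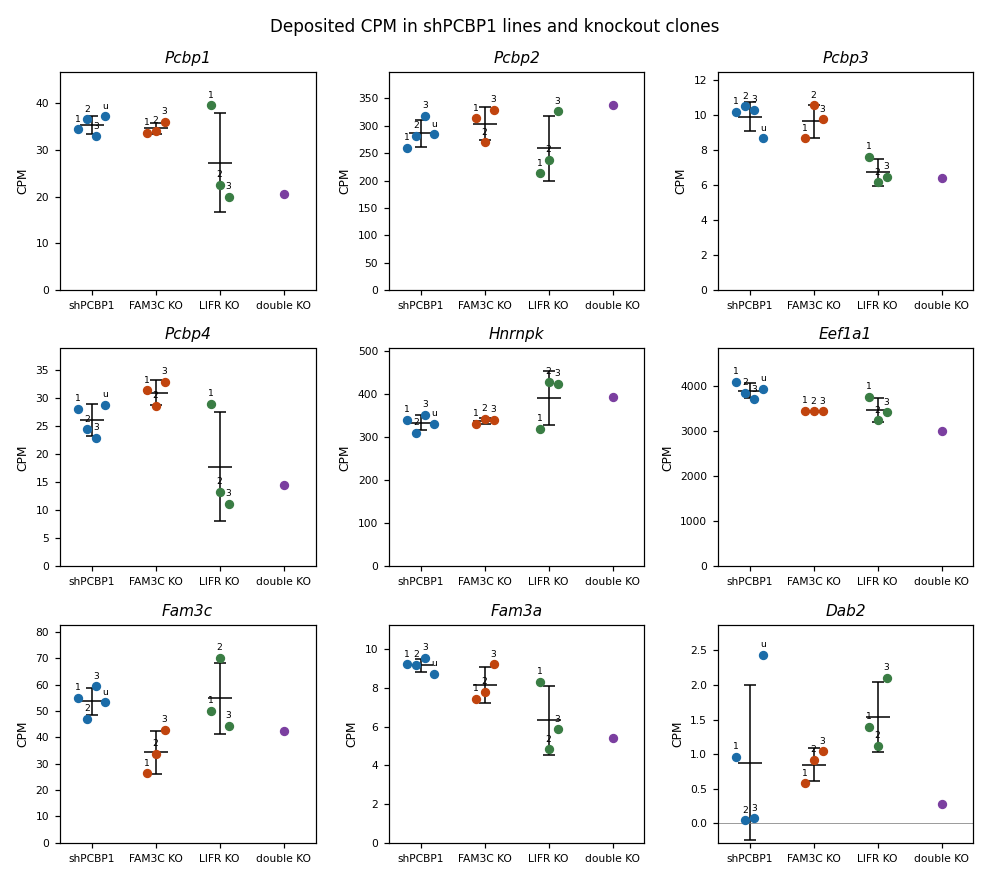
Deposited CPM of each gene in the 11 libraries of the knockout table (points labelled by clone number, u for the unaltered line), with the mean and SD of each group in black. Fam3c and Eef1a1 lie lower in each FAM3C KO clone than in each shPCBP1 line, and Pcbp3 and Fam3a lie lower in each LIFR KO clone, while the spread of Pcbp1, Pcbp4 and Hnrnpk is widest among the LIFR KO clones.

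FAM3C KO clones were compared with the shPCBP1 lines to ask what loss of the PCBP1 target changes. Fam3c itself was at 26.4, 33.9 and 42.9 CPM in FAM3C KO clones 1 to 3, against 53.3 CPM for unaltered cells and 54.9, 47.0 and 59.4 CPM for CT clones 1 to 3. Each clone was below each shPCBP1 line, with means of 34.4 ± 8.23 CPM (SD, n = 3) and 53.7 ± 5.13 CPM (SD, n = 4), and clone 3 came closest. The log2 difference was -0.66 (SE 0.189). It was not called with a spread shared over all 3 groups (adjusted p = 0.232, limma) and was called with these groups fitted alone (adjusted p = 0.0427, limma), where 1040 of all genes were called. The exact permutation test, two-sided, gave p = 0.0286, the smallest that 4 lines against 3 allow. Transcript of the targeted gene was therefore still present in the clones labelled FAM3C -/-. The study screened its knockout lines by PCR and immunoblot, and protein was not measured here.

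None of the 9 genes was called in FAM3C KO, and 39 of 12621 genes were (0.309%, of which 0.0872% higher and 0.222% lower), with 1286 at an unadjusted p under 0.05 (limma). The groups did not overlap for 2 of the 9 genes, both lower, against 22.7% of all genes (10.1% higher and 12.5% lower). Besides Fam3c this was Eef1a1, at 3446, 3429 and 3434 CPM in the FAM3C KO clones and between 3700 and 4088 CPM in the shPCBP1 lines. The 3 clones had nearly the same level, and the difference of -0.18 (95% interval -0.42 to 0.07, adjusted p = 0.672, limma) had an exact permutation p of 0.0286.

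The PCBP genes overlapped between FAM3C KO and shPCBP1 for each member. Pcbp1 values of 33.6, 34.1 and 36.0 CPM in the FAM3C KO clones lay inside the shPCBP1 range, and the difference was -0.027 with a 95% interval from -0.46 to 0.41. Pcbp2 was at 314, 269 and 329 CPM against 260 to 318 CPM in the shPCBP1 lines, and the groups overlapped. The differences of Pcbp2, Pcbp3, Pcbp4 and Hnrnpk were 0.087, -0.037, 0.25 and 0.020, with adjusted p from 0.872 to 0.983 (limma). Fam3a, the paralog of the gene that was targeted, had 7.44, 7.80 and 9.22 CPM in the clones and 8.73 to 9.55 CPM in the shPCBP1 lines. It was not higher where Fam3c was lower, with a difference of -0.17 and a 95% interval from -0.57 to 0.22.

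Dab2 was low throughout the knockout table. In the shPCBP1 lines it had 2.43 CPM in the unaltered line, 0.96 CPM in CT clone 1, the value for no reads in CT clone 2 and 0.069 CPM in CT clone 3, or 38, 44, 0 and 1 reads. The control lines thus spanned the whole range of the table, with 0 reads in CT clone 2 allowing up to 3. FAM3C KO clones had 0.58, 0.92 and 1.04 CPM, from 12, 22 and 26 reads, all inside the range of the shPCBP1 lines. The difference of 0.88 had an SE of 0.887 (adjusted p = 0.859, limma), so that a change in either direction was not detectable.

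LIFR KO clones were compared with the same 4 shPCBP1 lines. Lifr itself had 34.9, 29.3 and 14.6 CPM in clones 1 to 3 and 25.8 to 40.2 CPM in the shPCBP1 lines, so the transcript level does not mark the LIFR -/- label in clones 1 and 2. The study screened its knockout lines by PCR for a short excision in coding sequence and then by immunoblot. Lifr was at 10.5 to 19.2 CPM in FAM3C KO, below each shPCBP1 line, and at 4.36 CPM in the double KO. Of the 9 genes 1 was called in LIFR KO, Pcbp3, against 6.47% of all genes (0.911% higher and 5.55% lower). Pcbp3, the least abundant PCBP gene, was at 7.62, 6.16 and 6.48 CPM in the clones and at 8.67 CPM in unaltered cells and 10.2, 10.5 and 10.3 CPM in the CT clones. Each clone was below each shPCBP1 line, by -0.55 (SE 0.137, adjusted p = 0.0554, limma), with an exact permutation p of 0.0286. The call was made in 3 of 9 other settings and in 2 of 10 fits that each left out a library (adjusted p from 0.00229 to 0.221). With the GC correction and with clone 1 as the only LIFR KO library it was lost. The unaltered line was the lowest of the shPCBP1 lines, and without it the difference was -0.61 (adjusted p = 0.103, limma).

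The other genes split by clone. Pcbp1 was at 39.5 CPM in clone 1, the highest value in the knockout table, and at 22.5 and 19.9 CPM in clones 2 and 3, below every shPCBP1 line. Pcbp4 was at 29.0 CPM in clone 1 and at 13.3 and 11.1 CPM in clones 2 and 3, and Fam3a at 8.31, 4.82 and 5.87 CPM. Hnrnpk ran the other way, with 319 CPM in clone 1 and 428 and 424 CPM in clones 2 and 3, against 310 to 352 CPM in the shPCBP1 lines. None of these was called with all clones (adjusted p from 0.0824 to 0.190, limma). Without clone 1 the difference of Pcbp1 was -0.73, that of Pcbp4 -1.09, Pcbp3 -0.64, Fam3a -0.77, Eef1a1 -0.23 and Hnrnpk 0.36, all called, with adjusted p from 0.000124 to 0.0683 (limma), but 7232 of all genes were then called against 816 with it. With clone 1 as the only LIFR KO library, Pcbp1 and Pcbp4 were higher by 0.17 and 0.16 and none of the 9 was called.

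In clones 2 and 3 the genes of high GC content were lower, while those of low GC content were mixed. The transcripts of Pcbp4 (61.7% GC), Pcbp1 (57.8%), Pcbp3 (55.3%) and Fam3a (54.9%) lie above the median of 50.2%. These 4 genes were lower in clones 2 and 3. Eef1a1 (47.4%) lies below the median and was lower there too, with log2 differences from the shPCBP1 mean of -0.26 and -0.19. Hnrnpk (42.9%) was higher in both. Fam3c, with the same 42.9%, had 50.0, 70.1 and 44.5 CPM in clones 1 to 3, above and below the shPCBP1 lines, and its mean difference was 0.0098 (95% interval -0.41 to 0.43). Corrected for GC content, Pcbp1 stood at 40.9, 33.4 and 29.4 CPM and Pcbp4 at 30.1, 23.8 and 20.3 CPM in the 3 clones, nearer to each other than before. Hnrnpk stood at 338, 299 and 287 CPM after the correction and changed the sign of its difference, to -0.12.

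**Figure D4:**
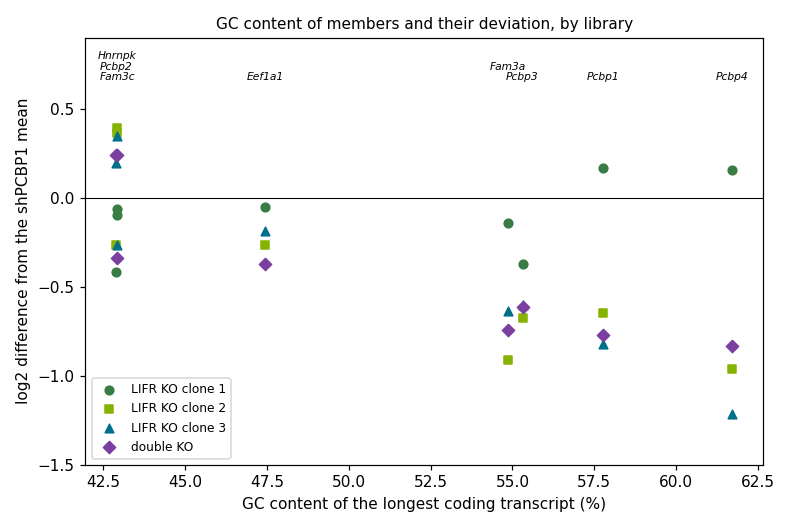
GC content of the transcript (x axis, percent) against the log2 difference from the shPCBP1 mean (y axis) for 8 of the 9 genes in LIFR KO clones 1 to 3 and the double KO. Dab2 is left out because 1 of its shPCBP1 libraries held no reads. The genes of high GC content on the right are lower in clones 2 and 3 and in the double KO, and not in clone 1 for Pcbp1 and Pcbp4.

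Pcbp2, also of 42.9% GC, had 213 and 238 CPM in LIFR KO clones 1 and 2, below each shPCBP1 line, and 326 CPM in clone 3, above each of them. Its difference of -0.16 (95% interval -0.49 to 0.16) became 0.0011 with median-ratio rescaling, which takes out the median shift of -0.16 over all genes in this comparison. Eef1a1 was at 3752, 3237 and 3410 CPM, and clone 1 lay inside the shPCBP1 range. Dab2 was at 1.39, 1.12 and 2.10 CPM, from 25, 26 and 48 reads, all below the unaltered line and above CT clones 1 to 3. The difference of 1.66 (SE 0.887, adjusted p = 0.193, limma) was not called. The groups did not overlap for 2 of the 9 genes, Pcbp3 and Fam3a, both lower, against 17.2% of all genes (3.95% higher and 13.2% lower).

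The knockouts were also compared directly, FAM3C KO minus LIFR KO. Of the 9 genes 1 was called, Pcbp3 again (0.51, SE 0.146, adjusted p = 0.0673, limma), against 8.28% of all genes (6.83% higher and 1.45% lower). This comparison shares the LIFR KO clones with the preceding one. The call was made in 2 of 9 other settings and in 1 of 10 fits with a library left out, the fit without LIFR KO clone 1 (adjusted p = 0.00489, limma). Fam3c was lower in each FAM3C KO clone than in each LIFR KO clone, the closest values being 42.9 and 44.5 CPM, with a difference of -0.67 (SE 0.202, adjusted p = 0.0753, limma) that was called after median-ratio rescaling (adjusted p = 0.0612) and quantile normalization (adjusted p = 0.0616). Dab2 was also lower in each FAM3C KO clone than in each LIFR KO clone, at 1.04 CPM or less against 1.12 CPM or more, and its difference of -0.79 was not called (adjusted p = 0.578, limma). The groups did not overlap for 3 of the 9 genes, against 22.8% of all genes (16.1% higher and 6.73% lower), and the exact permutation p of 0.1 for each is the smallest that 3 against 3 allow.

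**Figure D5:**
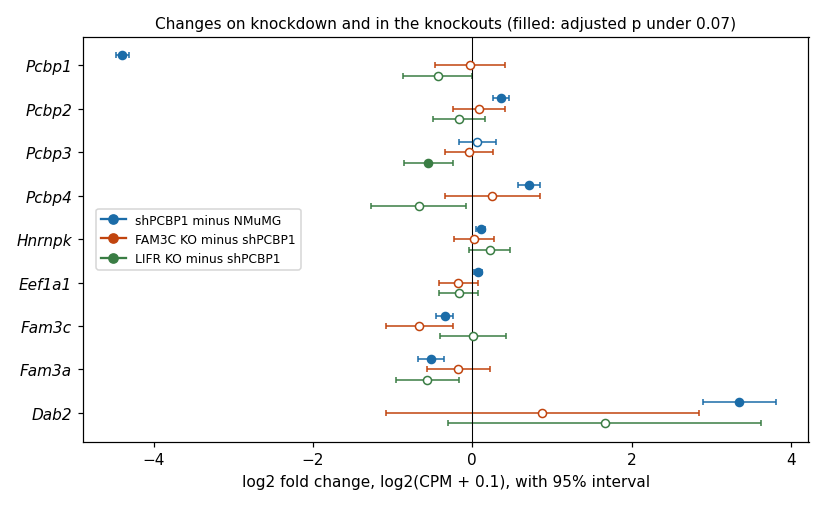
Log2 fold change of each gene on the log2(CPM + 0.1) scale with its 95% interval for shPCBP1 minus NMuMG (blue), FAM3C KO minus shPCBP1 (orange) and LIFR KO minus shPCBP1 (green), filled where the adjusted p from limma was under 0.07. The knockdown intervals are narrow and 8 of 9 are filled, while of the knockout values only Pcbp3 in LIFR KO is filled and the intervals of Dab2 span -1.09 to 2.84 and -0.30 to 3.63.

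Calls among other genes of the lists are to be set against the calls over all genes. These were 0.309% in FAM3C KO, 6.47% in LIFR KO and 8.28% between the knockouts. In FAM3C KO none of the tested genes for KH-domain proteins (29), elongation factors (9), AKT, PAK1 and TGF-beta signaling (12) or clathrin adaptors and partners of DAB2 (22) was called by limma, with list medians from -0.072 to 0.051 beside -0.014 over all genes. In LIFR KO the lists gave 1 call besides Pcbp3 and the epithelial keratin Krt18, that of Lrp1, which encodes an endocytic receptor, at 82.8 CPM in the clones and 197 CPM in the shPCBP1 lines (-1.28, adjusted p = 0.0388, limma). Lrp1 (57.9% GC) had 119, 54.2 and 75.1 CPM in clones 1 to 3, and Krt18 (56.4% GC) had 656, 402 and 730 CPM against 823 to 1038 CPM in the shPCBP1 lines. Neither call was made with the GC correction (adjusted p = 0.0734 and 0.263, limma) or with clone 1 alone (0.327 and 0.188). Between the knockouts the called genes were Khsrp, Mex3a and Tdrkh among KH-domain genes, Lrp1 and Dab2ip among the clathrin list, Tgfb1 among the signaling list, the epithelial marker Krt18 (0.86, adjusted p = 0.0466, limma) and the mesenchymal marker Fn1 (0.91, adjusted p = 0.0535, limma), with Tdrkh lower and the others higher in FAM3C KO. Of these 8 genes Mex3a alone was called with the GC correction (adjusted p = 0.0404, limma), and Mex3a, Tdrkh and Krt18 were called with clone 1 as the only LIFR KO sample.

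The double KO is a single line and was not tested. Pcbp1 was at 20.6 CPM there, Pcbp3 at 6.42, Pcbp4 at 14.6 and Fam3a at 5.43 CPM, all below the lowest shPCBP1 line and near LIFR KO clones 2 and 3, whose GC pattern it shares. Pcbp2 at 337 CPM and Hnrnpk at 393 CPM were above the highest shPCBP1 line. Eef1a1, at 3003 CPM, had its lowest value among the 11 libraries, and Fam3c at 42.3 CPM was close to the 42.9 CPM of FAM3C KO clone 3. Dab2 was at 0.28 CPM, from 5 reads.

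Genes most like these in their pattern were sought by Pearson r of log2(CPM + 0.1) over the 11 libraries of the knockout table, among 12621 genes. The 3 closest to Pcbp1 were Znhit1 (r = 0.994), Ergic3 (0.993) and Rnf220 (0.992), with transcripts of 60.0, 56.6 and 56.1% GC. Those closest to Fam3c were Cdc7 (0.936), Lrr1 (0.920) and Pbdc1 (0.910), of 46.5, 42.1 and 40.0% GC, and those closest to Dab2 were Llph (0.917), Dhdh (0.896) and Neu3 (0.822). The libraries share their GC pattern, and these values are descriptions.

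PCBPs bind runs of C, and the longest coding transcript of each gene was searched on its sense strand for CCCC, with overlapping matches counted. Among transcripts of the genes listed for the knockouts, 97.7% held at least 1 match, with a median of 4.30 per kb. Fam3c held 4 matches or 1.42 per kb, fewer per kb than all but 10.5% of genes, and Dab2 held 31 or 6.65 per kb. Pcbp4 and Fam3a were the richest of the 9, with 11.3 and 11.1 per kb, and Pcbp1 itself held 8.20 per kb. A match is a run of letters and not a measured binding site.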

How the data were processed

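The authors trimmed reads, aligned them to GRCm38 with Bowtie2 (which does not split reads at introns, so exon-rich genes can lose junction reads) in Partek Flow, and deposited CPM per sample, a small constant standing for no reads. Per the file headers the knockdown table also holds the authors' ratio of group means, which was not used. The members and lists were chosen with earlier results of these data known. Values were taken as log2(CPM + 0.1), genes averaging under 0.5 CPM were dropped (12621 and 11384 kept), and limma 3.58.1 (R 4.3.3) fitted them with a trended prior and Benjamini-Hochberg adjustment. The 3 replicated knockout-table groups were fitted together and the double KO was left out. Named genes were the 9 members, up to 4 called genes with the largest change per list and comparison, the 3 genes most correlated with Pcbp1, Fam3c and Dab2, genes starting near Dab2, and Lifr. Akt1, Pak1, Cdh1, Krt8, Krt18, Krt19, Vim, Fn1, Cdh2, Zeb1, Snai2, Ptprc, Lyz2, Cd68, Twist1, Twist2 and Map3k12 were named after their values were seen. Too few low values were whole multiples of 1 read (shares of 0.874 to 0.893 and 0.917 to 0.929, tolerance 0.02 reads) for a count test.

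Single genes of the knockout table were compared by exact permutation tests, two-sided, over lines. Alternatives were quantile normalization, rescaling by median ratios, adding 1 CPM before the log, no filter or a filter of 1 CPM, the replicate number as a block, 2 groups fitted alone and each library left out. A GC correction (loess, span 0.3) and a fit in which clone 1 alone stood for LIFR KO were added after seeing the data. Coordinates, lengths, GC content and sequences came from GENCODE M21 (GRCm38), because gene starts of the knockout table equalled it for only 302 of 13870 matched genes (14269 of 14795 in the knockdown table). Sequence matches were found with blastn 2.17.0. On simulated data the fit recovered 58 of 65 changes of 1 log2 unit for the knockdown (11346 genes) with 8 false calls, 51 of 77 for FAM3C KO (12601 genes) with 8, 43 of 65 for LIFR KO (12596 genes) with 19 and 38 of 67 for FAM3C KO against LIFR KO (12596 genes) with 9. Genes were simulated independently and few were changed, whereas 80.1% were called on knockdown and some knockout libraries shared a GC pattern. These counts are therefore not error rates of the real fits. Figures were drawn with matplotlib 3.10.9.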

Additional observations from a re-analysis of the deposited data

Results flagged for a closer look

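Pcbp3 differed between the knockouts by a test of the difference itself, with 9.67 CPM in FAM3C KO and 6.75 CPM in LIFR KO (log2 difference 0.51, adjusted p = 0.0673, limma), and the call was lost with the GC correction. In the double KO, a line outside the tests, Pcbp2 at 337 CPM and Hnrnpk at 393 CPM were above all 4 shPCBP1 lines, and corrected for GC content they were at 241 and 281 CPM, below all 4 lines so corrected. Among the 4 shPCBP1 lines Pcbp3 was lowest in the unaltered line, whose gap to the nearest line over the whole range was 0.841 on the log2(CPM + 0.1) scale, past the 95% limit of Dixon's test, and 0.8285 on the CPM scale, just under it. The other 8 genes were under the limit on both scales, and chance alone passes it in about 1 of 20 groups.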

How the results depend on the processing

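On knockdown the 8 calls among the 9 genes were made in each alternative except those of Hnrnpk (quantile normalization) and Eef1a1 (median-ratio rescaling, and without either shPCBP1 sample), and 7 or 8 were called with a sample left out. The change of Dab2 was 1.34 with a pseudocount of 1 CPM, and no value could be had for it with a filter of 1 CPM. Pcbp3 turned to -0.046 with the GC correction and ranged from -0.046 to 0.18 with a sample left out.

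In FAM3C KO, 39 called genes became 21 with a filter of 1 CPM, 15 with the replicate block, 1040 with 2 groups alone, 141 with the GC correction, 1050 with LIFR KO clone 1 only, and 3 to 354 with a library left out. Called members became 1 (Fam3c) with 2 groups alone and with clone 1 only (adjusted p = 0.0419, limma), and stayed at 0 with a library left out. Hnrnpk turned to -0.023 with the GC correction. With a library left out, Hnrnpk ranged from -0.014 to 0.047 and Pcbp3 from -0.10 to 0.037.

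In LIFR KO, 816 called genes became 478 with median-ratio rescaling, 10 with the replicate block, 34 with 2 groups alone, 65 with the GC correction, 280 with clone 1 only, and 5 to 7232 with a library left out. Called members became 0 in each of these and after quantile normalization, and 0 to 6 with a library left out. Pcbp2 turned to 0.0011 with median-ratio rescaling, Hnrnpk to -0.12 and Fam3c to -0.32 with the GC correction, and with clone 1 only Pcbp1 to 0.17, Pcbp4 to 0.16, Hnrnpk to -0.061 and Fam3c to -0.10. Fam3c ranged from -0.18 to 0.15 with a library left out.

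Between the knockouts, 1045 called genes became 0 with the replicate block and with 2 groups alone, 205 with the GC correction, and 1 to 6674 with a library left out. Called members became 0 with no filter, the block, 2 groups alone and the GC correction, and 0 to 6 with a library left out. Eef1a1 turned to 0.18 after quantile normalization and 0.10 with the GC correction, and ranged from -0.058 to 0.049 with a library left out. Hnrnpk turned to 0.093 with the GC correction, and with clone 1 only Pcbp1 to -0.19, Hnrnpk to 0.081 and Fam3a to -0.034. The cause of these changes was not tested.

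The shared clone and replicate numbers did not pair the samples (correlations of their deviations from -0.189 to 0.154 in the knockout table and 0.0512 in the knockdown table). The block changed no call of the 9 genes on knockdown or in FAM3C KO. A left-out replicate of the knockdown table leaves a lone sample, assumed to vary like the other group. Depth limits Dab2, at 0 to 101 reads a library.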
